A study of Homo sapiens with 12 samples.

Results

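Cytosolic heat shock chaperones, the proteins that hold and refold damaged proteins in the cytosol, were followed in SW480 cells through 8 genes chosen by name. They were HSPA1A, HSPA1B, HSPA6 and HSPA12A of the HSP70 family, HSP90AA1, the co-chaperone genes DNAJB1 and BAG3, and the small heat shock protein gene CRYAB. The 8 were picked by name when earlier results of these data were known. They make up 8 of the 3699 genes in the authors' deposited table, which is itself selected for change. No further cut on a measured value was made. SW480 is an established line from a human colorectal adenocarcinoma, and the series, per its title, concerns Gegen Qinlian Decoction, a herbal preparation, and Wnt signalling. RNA was sequenced in 12 libraries, with 3 from cells given GLY, 3 from cells given GLY and PUE together (GLY_PUE), 3 from cells given PUE and 3 from untreated cells. GLY and PUE are kept as the labels abbreviate them, and no dose is given there. All 4 groups share the same growth in IMDM with 10% serum for 12 h before a treatment of 12 h. The GLY libraries are the exception in their labels, where replicates 1, 2 and 3 carry 12, 13 and 14 h. The labels do not say that the replicates were separate cultures, so p-values cover only how much these libraries vary, and that variation may be technical.

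HSP70 proteins bind exposed hydrophobic stretches of unfolded proteins and release them in cycles driven by ATP, J domain partners such as DNAJB1 start each cycle, and exchange factors such as BAG3 end it. HSP90 acts later, on nearly folded clients such as kinases and transcription factors, and small heat shock proteins such as CRYAB keep unfolded proteins from clumping without using ATP. In unstressed cells these chaperones hold the transcription factor HSF1 inactive, and unfolded protein draws them off, so that HSF1 assembles and binds heat shock elements, which are repeats of the letters GAA and their reverse complement TTC in alternating direction. Tumour cells, those of the colon included, commonly carry high HSP70 and HSP90 levels.

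The stretches before the start sites of 5 of the 8 genes are shown because they hold such repeats and belong to genes that moved together below. Each gives the 150 bases before the start in RefSeq's promoter table for GRCh38.p14, 5′ to 3′ on the gene's strand, with capitals for each element of 2 units (GAANNTTC or TTCNNGAA, each its own reverse complement in pattern, so that both strands are covered). The stretches are chr6:31815393-31815542 on the plus strand for HSPA1A, chr6:31827588-31827737 on the plus strand for HSPA1B, chr1:161524390-161524539 on the plus strand for HSPA6, chr19:14518398-14518547 on the minus strand for DNAJB1 and chr14:102087045-102087194 on the minus strand for HSP90AA1.
HSPA1A: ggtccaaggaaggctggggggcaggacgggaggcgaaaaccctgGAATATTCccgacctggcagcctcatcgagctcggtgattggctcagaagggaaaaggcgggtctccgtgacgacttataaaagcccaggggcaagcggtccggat
HSPA1B: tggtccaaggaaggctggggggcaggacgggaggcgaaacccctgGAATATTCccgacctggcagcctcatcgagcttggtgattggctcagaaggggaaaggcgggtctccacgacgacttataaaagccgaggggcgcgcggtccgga
HSPA6: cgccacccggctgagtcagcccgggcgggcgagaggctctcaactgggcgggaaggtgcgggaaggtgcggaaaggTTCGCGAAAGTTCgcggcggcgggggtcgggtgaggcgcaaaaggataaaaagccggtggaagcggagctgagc
DNAJB1: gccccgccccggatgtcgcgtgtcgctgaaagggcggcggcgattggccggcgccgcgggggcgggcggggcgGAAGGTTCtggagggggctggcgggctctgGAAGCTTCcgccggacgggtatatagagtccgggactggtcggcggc
HSP90AA1: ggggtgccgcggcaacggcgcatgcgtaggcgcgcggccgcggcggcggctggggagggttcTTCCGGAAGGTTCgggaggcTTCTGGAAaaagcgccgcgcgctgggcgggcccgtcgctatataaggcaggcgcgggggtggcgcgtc

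Of the 8 genes, 7 were in that table, and CRYAB was not. Windows of 300 bases run from 250 before the start to 50 after it. Of the 8 genes, 5 held an element of 2 units in any of their windows. Counted by window and not by gene, 13.5% of all 35116 windows did. An element of 3 units (GAANNTTCNNGAA or TTCNNGAANNTTC, which contains elements of 2 units) stood in HSPA6 and HSP90AA1, and in 0.49% of all windows. Of 16 other genes on the heat shock lists described below, 3 held an element of 2 units and 0 held one of 3 units. In HSPA6 the run TTCGCGAAAGTTC begins 74 bases before the start, and in HSP90AA1 the run TTCCGGAAGGTTC begins 88 bases before it. DNAJB1 has 3 windows in the table and HSP90AA1 has 2. For each the window with the most elements is shown, which holds 2 and 3 of them. The other DNAJB1 windows hold 0 and 1, and the other HSP90AA1 window holds 0. BAG3 and HSPA12A held no such letters in their windows. HSPA1A and HSPA1B each had 1 element, 106 and 105 bases before the start, and their windows were 92.0% identical, with the letters TATAAA in both, against 7.33% of all windows. A match of letters describes the window and is not a binding site.

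In GENCODE release 29 on GRCh38, HSPA1A lies at chr6:31815464-31817946 and HSPA1B at chr6:31827735-31830255, both on the plus strand with 1 exon, so that the second gene starts 9789 bases after the end of the first. HSPA6 lies at chr1:161524540-161526910, also with 1 exon. The spliced genes are HSPA12A at chr10:116671192-116850236 with 13 exons, DNAJB1 at chr19:14514770-14529770 with 3, CRYAB at chr11:111908565-111923722 with 4 and HSP90AA1 at chr14:102080738-102139699 with 12, all on the minus strand, and BAG3 at chr10:119651370-119677819 with 4, on the plus strand. Exon numbers are those of the longest coding transcript. These GENCODE starts of HSPA1A and HSPA1B lie within the stretches printed above, so the distances given there hold for RefSeq's starts only. The printed stretches of DNAJB1 and HSP90AA1 lie within the GENCODE spans of these genes.

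Libraries held 19.7 to 21.4 M reads (1 M is 1e+06), as recovered from the deposited values, and the listed genes took 13.8% to 15.4% of them. In every one of the 3699 listed genes some comparison of the authors' deposited table has a log2 ratio of 1 or more in size together with a q-value no higher than 0.001. The list is thus selected for change, calls within it are favoured, and a gene missing from it was not analysed here. Levels are given as CPM, counts per 1e+06 reads of a library, and as the authors' FPKM, which is also divided by gene length, where genes are compared with each other. A count of 0 would allow up to 0.152 CPM (3 counts, counting error only), and all 8 genes stood above that in every library. Tests are edgeR's quasi-likelihood test with Benjamini-Hochberg adjustment over 3429 genes and a threshold of 0.05.

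The inducible chaperones rose with GLY. In GLY against untreated cells 7 of the 8 genes rose and HSPA12A fell, with folds of 16.3 for HSPA6, 15.5 for CRYAB, 7.38 for HSPA1A, 4.48 for HSPA1B, 2.72 for BAG3, 2.10 for DNAJB1 and 2.05 for HSP90AA1. GLY_PUE cells showed the same 7 genes higher and the same gene lower than untreated and than PUE cells. PUE alone moved none of them past the threshold. In all genes tested, 84.3% were called in GLY against untreated cells, 19.7% as higher and 64.6% as lower (674 and 2216 genes, against 812 and 346 under TMM scaling), so a call as such is common in this table, and a call as higher is less so. No group of cells is resolved in such bulk RNA: a lower share of cells with a transcript and less of it per cell cannot be told apart.

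**Figure D1:**
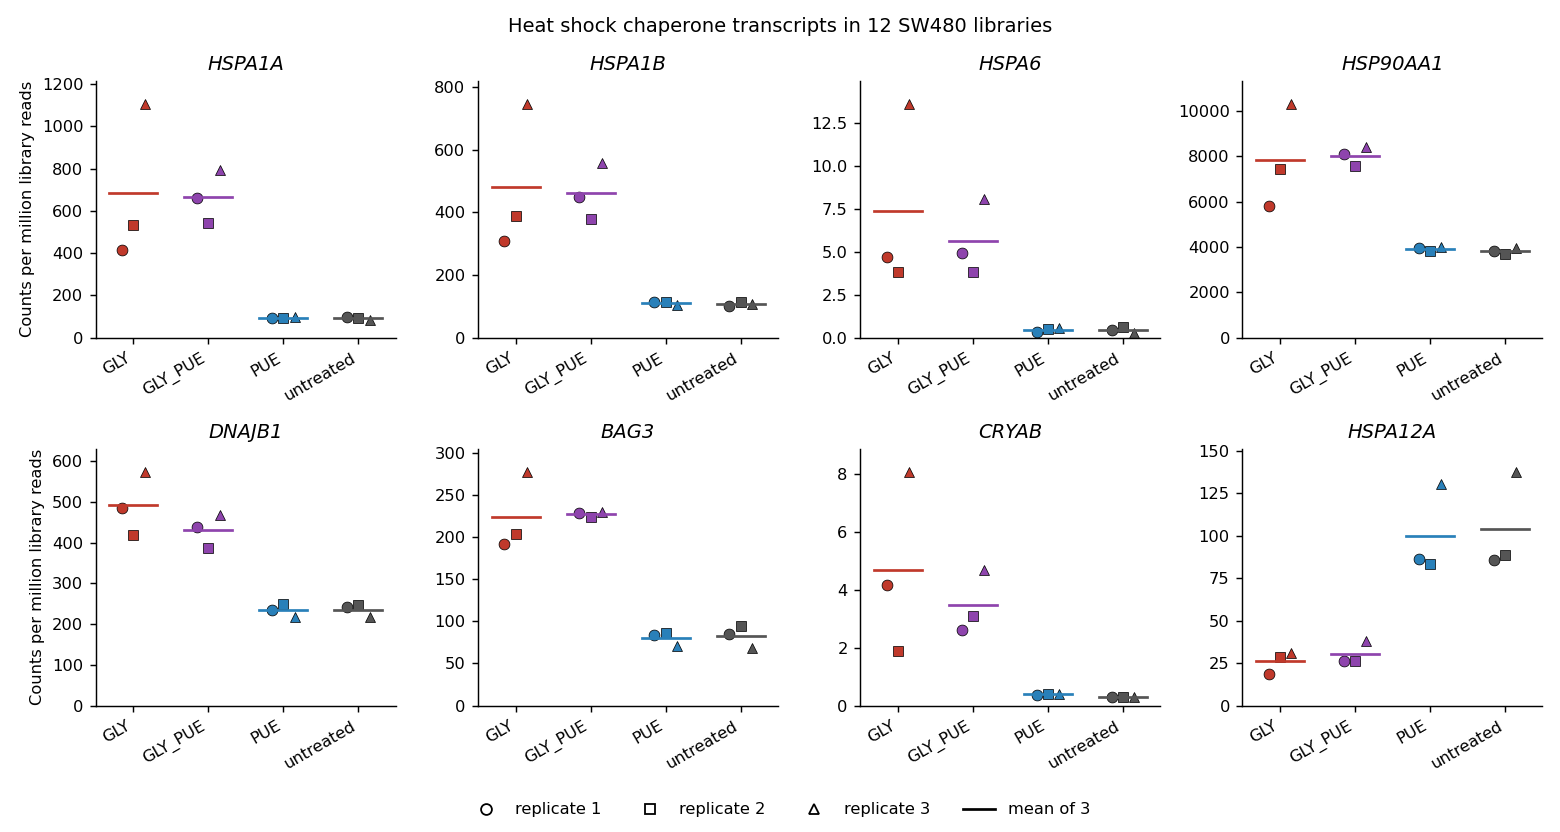
Levels of the 8 chaperone genes in each library, in CPM on axes that start at 0. Marker shapes are replicates, lines are means of 3, and groups run from GLY to untreated. For 7 genes every GLY and GLY_PUE library lies above every PUE and untreated library, and for HSPA12A every one lies below.

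HSPA1A encodes the main stress-inducible HSP70. It stood at 415, 532 and 1103 CPM in GLY libraries, at 662, 541 and 792 CPM in GLY_PUE libraries, at 92.2, 93.7 and 98.1 CPM in PUE libraries and at 98.4, 93.9 and 85.5 CPM in untreated libraries. The 6 libraries with GLY were far above the 6 without it and did not overlap with them, and GLY replicate 3 was the highest of all. The mean was 683 ± 368 CPM in GLY cells and 92.6 ± 6.51 CPM in untreated cells (SD, n = 3 each), a log2 fold change of 2.88 (SE 0.33, adjusted p = 5.24e-05, edgeR). In GLY_PUE cells it was 665 ± 126 CPM, against 94.7 ± 3.04 CPM in PUE cells (SD, n = 3 each), a log2 fold change of 2.81 (SE 0.33, adjusted p = 6.29e-05, edgeR).

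HSPA1B encodes almost the same protein as its neighbour. Its levels were 307, 387 and 745 CPM in GLY libraries, 449, 380.1 and 557 CPM in GLY_PUE libraries, 113, 115 and 103 CPM in PUE libraries and 102, 114 and 106 CPM in untreated libraries. The libraries with GLY again lay apart from those without, with GLY replicate 3 on top. The log2 fold change was 2.16 in GLY against untreated cells (SE 0.30, adjusted p = 0.000154, edgeR) and 2.07 in GLY_PUE against PUE cells (SE 0.30, adjusted p = 0.000219, edgeR).

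Reads of these 2 genes are hard to assign. Of all stretches of 100 bases in the HSPA1A transcript, 69.9% also occurred in HSPA1B, and of stretches of 50 bases 72.6% did, while the full transcripts were 89.2% identical. The counts are partly fractional, and how the authors split shared reads is not given in the sources used here, so the sum of the pair is the firmer value. The sum was 722, 920 and 1849 CPM in GLY libraries, 1111, 921 and 1349 CPM in GLY_PUE libraries, 205, 209 and 201 CPM in PUE libraries and 200.0, 208 and 192 CPM in untreated libraries. As 1 row in the edgeR fit, the pair had a log2 fold change of 2.54 in GLY against untreated cells (SE 0.32, adjusted p = 7.80e-05) and of 2.46 in GLY_PUE against PUE cells (SE 0.32, adjusted p = 0.000104).

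The balance within the pair moved as well. HSPA1A took 57.5%, 57.9% and 59.7% of the pair's counts in GLY libraries, 59.6%, 58.7% and 58.7% in GLY_PUE libraries, 45.0%, 44.9% and 48.9% in PUE libraries and 49.2%, 45.2% and 44.6% in untreated libraries. All libraries with GLY had more HSPA1A than HSPA1B counts and all without GLY had fewer. The share was 58.3% ± 1.19 in GLY cells and 46.3% ± 2.48 in untreated cells (SD, n = 3 each), a difference of 12.0 percentage points. A two-sided exact permutation test gave p = 0.1, the smallest that 3 against 3 allows (0.167 after Benjamini-Hochberg adjustment over 5 comparisons). GLY_PUE cells had 59.0% ± 0.510 and PUE cells 46.2% ± 2.26 (SD, n = 3 each), a difference of 12.8 percentage points with the same exact p = 0.1. This share was examined after the values had been seen, and the part that read assignment has in it was not tested.

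**Figure D2:**
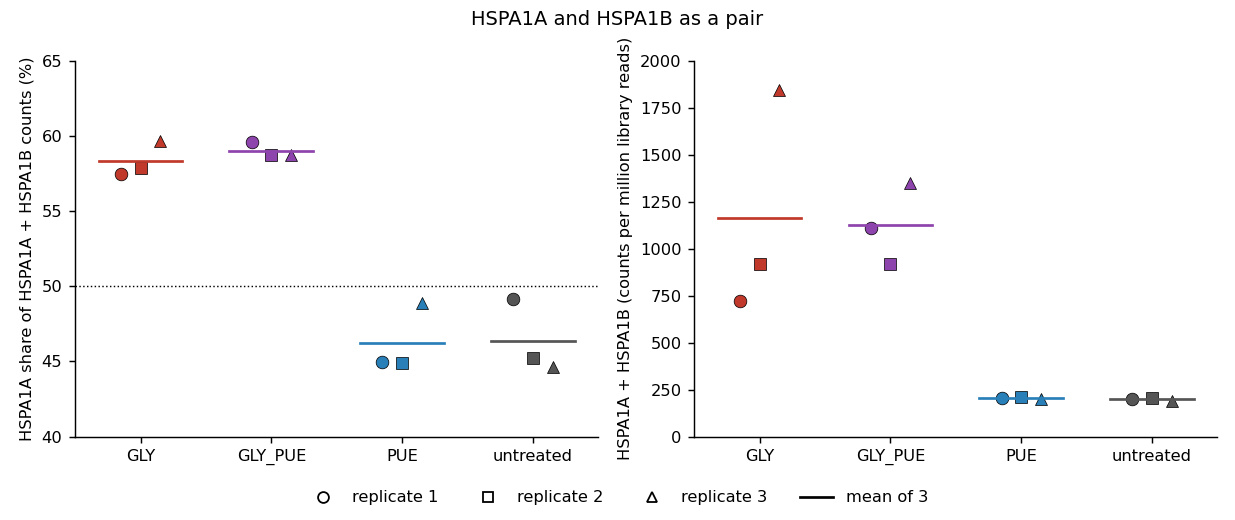
HSPA1A and HSPA1B as a pair, by library. The left axis is the share of HSPA1A in the pair's counts in percent (it runs from 40 to 65, and the dotted line marks equal counts), the right axis the pair's sum in CPM, with lines for means of 3. GLY and GLY_PUE libraries lie between 57.5% and 59.7%, above the PUE and untreated libraries.

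HSPA6 encodes an HSP70 that is nearly silent in unstressed human cells and is absent from rodents. It was counted 99, 81 and 289 times in GLY libraries, 105, 81 and 170 times in GLY_PUE libraries, 7, 10 and 11 times in PUE libraries and 9, 12 and 6 times in untreated libraries. Every library with GLY had many times the reads of any without, although the gene stayed rare. As levels, these were 7.34 ± 5.40 CPM in GLY cells and 0.446 ± 0.151 CPM in untreated cells (SD, n = 3 each), a log2 fold change of 4.02 (SE 0.55, adjusted p = 0.000126, edgeR). The fold of 16.3 was 9.39 without GLY replicate 3. GLY_PUE cells had 5.59 ± 2.20 CPM and PUE cells 0.466 ± 0.108 CPM (SD, n = 3 each), a log2 fold change of 3.57 (SE 0.55, adjusted p = 0.000270, edgeR). HSPA7, a pseudogene not analysed here, shared 45.5% of the 50-base and 27.6% of the 100-base stretches of HSPA6. Some of these reads are therefore uncertain.

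HSP90AA1 encodes the inducible cytosolic HSP90. It was by far the most abundant of the 8 genes, with 5804, 7437 and 10287 CPM in GLY libraries, 8089, 7550.3 and 8420.1 CPM in GLY_PUE libraries, 3950, 3818 and 4012 CPM in PUE libraries and 3839, 3686 and 3973 CPM in untreated libraries. The lowest library with GLY, GLY replicate 1, still lay above the highest without. The log2 fold change was 1.03 in GLY against untreated cells (SE 0.21, adjusted p = 0.00131, edgeR) and 1.03 in GLY_PUE against PUE cells (SE 0.21, adjusted p = 0.00139, edgeR). Other genes shared 17.5% of the 50-base and 2.14% of the 100-base stretches of the HSP90AA1 transcript. Among the listed genes HSP90AA1 ranked between 1 and 3 by counts in every library. It made up 78.9% to 82.8% of the summed CPM of the 8 genes in libraries with GLY and 85.2% to 86.6% in those without, so the sum follows it. That sum took 0.723%, 0.901% and 1.30% of all reads in GLY libraries, 0.990%, 0.911% and 1.05% in GLY_PUE libraries, 0.456%, 0.445% and 0.463% in PUE libraries and 0.445%, 0.432% and 0.459% in untreated libraries.

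DNAJB1, the J domain partner that hands unfolded proteins to HSP70, stood at 485, 419 and 572 CPM in GLY libraries, 437, 386 and 467 CPM in GLY_PUE libraries, 235, 249 and 216 CPM in PUE libraries and 241, 246 and 217 CPM in untreated libraries. The groups with GLY did not overlap with those without, at about the same distance as for HSP90AA1. Its mean was 492 ± 77.0 CPM in GLY cells and 235 ± 15.5 CPM in untreated cells (SD, n = 3 each), a log2 fold change of 1.07 (SE 0.19, adjusted p = 0.000622, edgeR). For GLY_PUE against PUE cells the log2 fold change was 0.88 (SE 0.19, adjusted p = 0.00192, edgeR).

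BAG3 encodes an exchange factor that links HSP70 to small heat shock proteins and to the disposal of aggregates by autophagy. Its levels were 191, 204 and 277 CPM in GLY libraries, 228, 223 and 230.1 CPM in GLY_PUE libraries, 83.3, 86.0 and 70.2 CPM in PUE libraries and 84.6, 94.6 and 68.2 CPM in untreated libraries. The SD was 3.59 CPM over the GLY_PUE libraries and 46.1 CPM over the GLY libraries (n = 3 each), and both groups stood clear of the libraries without GLY. The log2 fold change was 1.44 in GLY against untreated cells (SE 0.22, adjusted p = 0.000231, edgeR) and 1.51 in GLY_PUE against PUE cells (SE 0.22, adjusted p = 0.000200, edgeR).

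CRYAB encodes alpha B crystallin, the small heat shock protein known from the eye lens and from muscle. It was counted 88, 40 and 172 times in GLY libraries, 56, 66 and 99 times in GLY_PUE libraries, 7, 8 and 8 times in PUE libraries and 6 times in each untreated library. The gene was thus near the limit of these libraries without GLY and low but clear with it. It passed the filter for low counts only through the libraries with GLY, so its calls as higher are favoured. Its log2 fold change was 3.96 in GLY against untreated cells (SE 0.52, adjusted p = 0.000103, edgeR), with 4.70 ± 3.13 CPM in GLY cells and 0.297 ± 0.00147 CPM in untreated cells (SD, n = 3 each). The fold of 15.5 was 9.97 without GLY replicate 3. For GLY_PUE against PUE cells the log2 fold change was 3.16 (SE 0.51, adjusted p = 0.000325, edgeR). The extraction protocol in the labels mentions retinas, and of 6 retina markers none was in the table. The table holds only genes selected for change, so this absence does not tell whether such markers were expressed.

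HSPA12A encodes a distant member of the HSP70 family with an atypical ATPase domain. It went against the other 7, with 18.6, 28.4 and 30.9 CPM in GLY libraries, 26.3, 26.0 and 38.2 CPM in GLY_PUE libraries, 86.1, 83.4 and 131 CPM in PUE libraries and 85.6, 88.8 and 137 CPM in untreated libraries. All libraries with GLY lay below all without it. The log2 fold change was −2.00 in GLY against untreated cells (SE 0.31, adjusted p = 0.000254, edgeR) and −1.73 in GLY_PUE against PUE cells (SE 0.31, adjusted p = 0.000572, edgeR). The median log2 fold change of all genes tested was −1.15 in the first of these comparisons and −1.05 in the second, so much of the table fell with HSPA12A. Scaling by TMM, which centres on the listed genes, shifted that median by 1.13 and 1.02, and HSPA12A then had −0.86 and −0.70 and was still called (adjusted p = 0.00639 and 0.0211, edgeR). The other 7 genes kept their direction under TMM, with larger values.

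In GLY_PUE against untreated cells, which share the untreated libraries with the GLY comparison, the log2 fold changes were 3.63 for HSPA6, 3.52 for CRYAB, 2.84 for HSPA1A, 2.11 for HSPA1B, 1.46 for BAG3, 1.07 for HSP90AA1, 0.87 for DNAJB1 and −1.78 for HSPA12A. All 8 were called by edgeR, with adjusted p between 6.10e-05 for HSPA1A and 0.00207 for DNAJB1. Of all genes tested 77.3% were called there, 20.2% as higher and 57.1% as lower. In GLY_PUE against PUE cells, which share no library with GLY against untreated, 77.8% were called, 20.6% as higher and 57.3% as lower. Groups did not overlap for any of the 8 genes in these 3 comparisons. All genes tested had the 3 libraries with GLY above those without in 17.8% of cases in GLY against untreated, 21.8% in GLY_PUE against untreated and 22% in GLY_PUE against PUE cells. They had them below in 65.5%, 65.4% and 65.8% of cases, in the same order of comparisons.

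**Figure D3:**
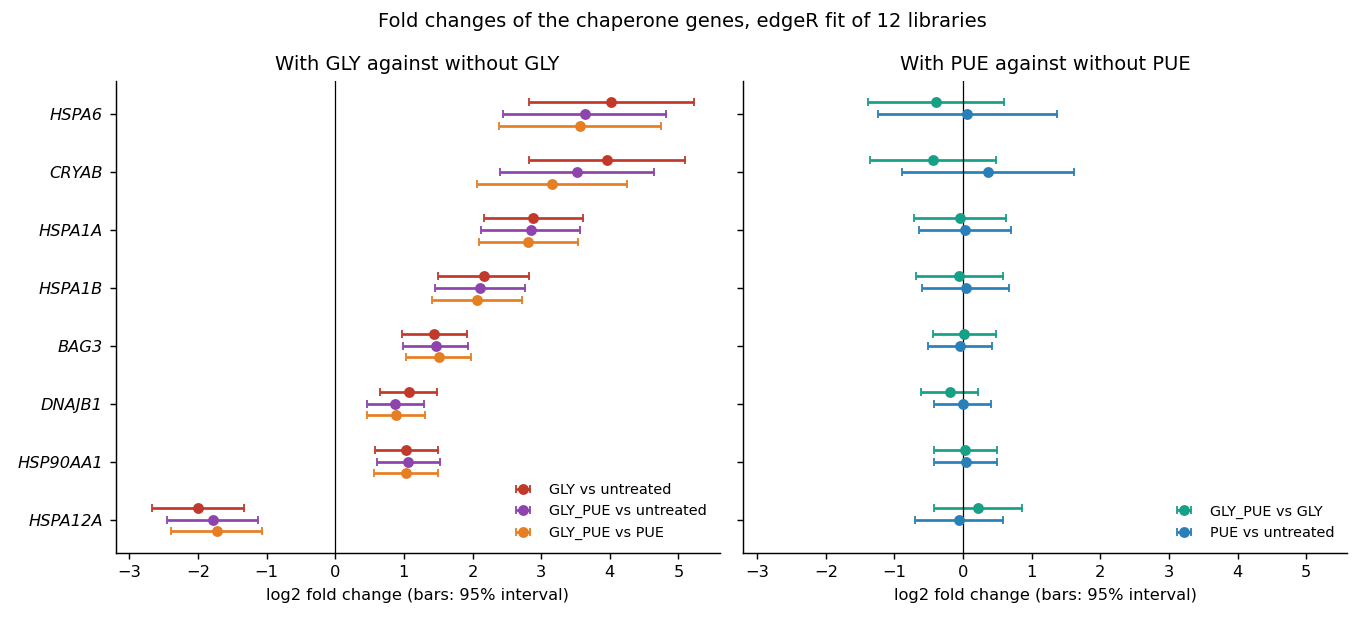
Log2 fold changes of the 8 chaperone genes from 1 edgeR fit of the 12 libraries, with bars for 95% intervals. The left panel gives the comparisons of cells with GLY against cells without, where the points run from −2.00 to 4.02, and the right panel those of cells with PUE against cells without, where every interval includes 0.

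Ordered by log2 fold change from the highest of the 3429 genes in GLY against untreated cells, HSPA6 ranked 31, CRYAB 33, HSPA1A 63, HSPA1B 135, BAG3 348, DNAJB1 582, HSP90AA1 615 and HSPA12A 2960. HSPA6 and CRYAB, the 2 rarest of the 8 in untreated cells, had the largest folds among them. HSP90AA1, the most abundant, had the smallest rise there, close to that of DNAJB1 (log2 fold changes of 1.03 and 1.07). In GLY_PUE against untreated and against PUE cells DNAJB1 rose least (0.87 and 0.88, against 1.07 and 1.03 for HSP90AA1). DNAJB1 and HSP90AA1 were close to the authors' minimum ratio.

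**Figure D4:**
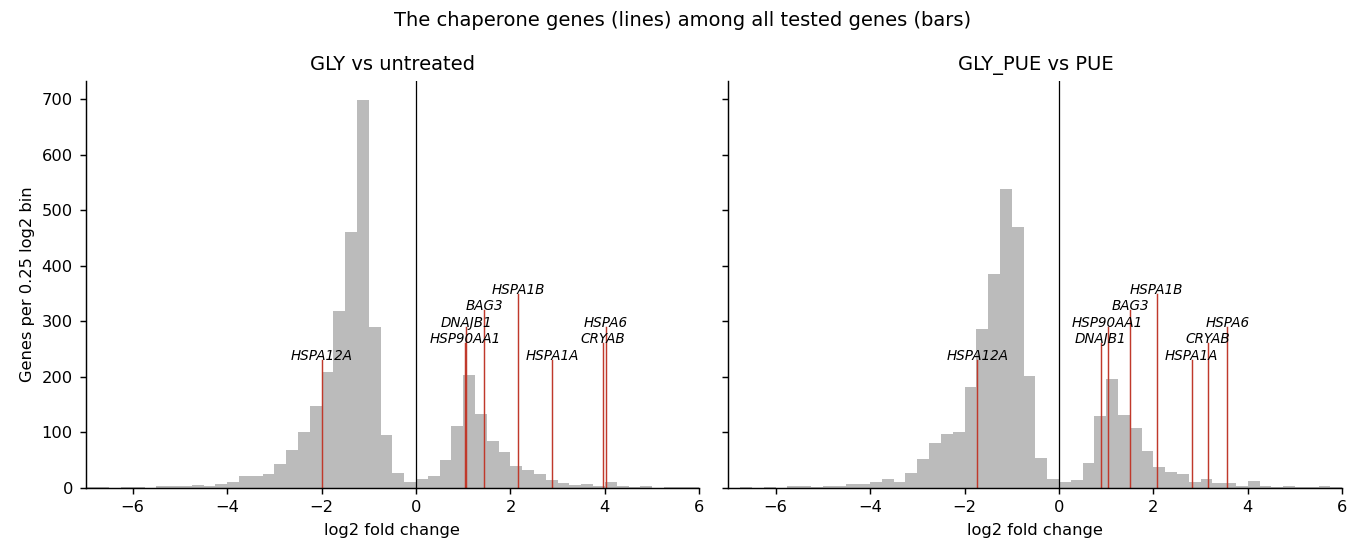
Log2 fold changes of all 3429 genes tested (bars, genes per bin of 0.25) with red lines at the 8 chaperone genes. The left panel is GLY against untreated cells and the right panel GLY_PUE against PUE cells. HSPA12A lies among the many genes that were lower, the other 7 among those that were higher.

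PUE added little that this fit could show. In PUE against untreated cells the log2 fold changes ran from −0.05 for HSPA12A to 0.36 for CRYAB, and none of the 8 genes was called (adjusted p = 1 for each, edgeR), nor was any of the 3429 genes (0% called, 12 genes at an unadjusted p under 0.05). Only CRYAB had its 3 PUE libraries clear of the untreated ones, at 0.348, 0.393 and 0.406 CPM in PUE against 0.296, 0.299 and 0.296 CPM in untreated libraries, a matter of 1 or 2 reads. Of all genes 1.63% had PUE libraries above all untreated ones and 1.66% below. The 95% intervals were −0.42 to 0.49 for HSP90AA1, −0.42 to 0.41 for DNAJB1, −0.64 to 0.70 for HSPA1A and −0.51 to 0.42 for BAG3. They rest on a spread shared over the 4 groups, so they are not limits of the PUE and untreated libraries alone. For HSPA1A the SD was 7.03% of the mean in untreated and 3.21% in PUE libraries. It was 53.9% in GLY and 18.9% in GLY_PUE libraries. With only the PUE and untreated libraries fitted, 0 of all genes were called. The intervals of the rare transcripts were wider, at −1.24 to 1.36 for HSPA6 and −0.90 to 1.62 for CRYAB.

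With GLY present, adding PUE gave log2 fold changes of −0.04 for HSPA1A, −0.05 for HSPA1B, 0.02 for BAG3 and 0.03 for HSP90AA1 in GLY_PUE against GLY cells. Those of DNAJB1 (−0.19, interval −0.61 to 0.22), HSPA6 (−0.39, interval −1.38 to 0.60), CRYAB (−0.44, interval −1.36 to 0.49) and HSPA12A (0.22, interval −0.43 to 0.86) were larger. None of the 8 genes was called (adjusted p between 0.959 and 0.996, edgeR), and 0% of all genes were (57 genes at an unadjusted p under 0.05). The groups overlapped for each of the 8, while of all genes 3.21% had GLY_PUE libraries above all GLY ones and 1.6% below. Without the libraries numbered 3 the value of HSPA1A was 0.35 and that of HSP90AA1 was 0.24. The difference between the GLY effect with PUE and the GLY effect without it, tested as an interaction, ran from −0.80 for CRYAB (interval −2.35 to 0.76) to 0.27 for HSPA12A (interval −0.64 to 1.18), with adjusted p = 0.999 for each gene (edgeR). No gene of the 3429 was called there, and 33 had an unadjusted p under 0.05.

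The authors' deposited table gives much smaller q-values. For PUE against untreated cells the authors' deposited table holds a log2 ratio of 0.0344 for HSP90AA1 with a q-value of 1.82e-13. For GLY_PUE against GLY cells the authors' deposited table holds q-values of 1.78e-59 for DNAJB1 (log2 ratio −0.196) and 6.66e-24 for HSP90AA1 (0.0294). In the edgeR fit, which uses the spread between libraries, none of these differences was called.

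Libraries numbered 3 stood apart for some of these genes. Within the GLY group replicate 3 had 3.20 times the mean CPM of replicates 1 and 2 for HSPA6, 2.68 times for CRYAB, 2.33 times for HSPA1A, 2.15 times for HSPA1B and 1.55 times for HSP90AA1. In the GLY_PUE group these ratios were 1.84 for HSPA6, 1.64 for CRYAB, 1.32 for HSPA1A, 1.34 for HSPA1B and 1.08 for HSP90AA1. The HSPA1A ratio was 1.06 in PUE and 0.890 in untreated libraries. GLY replicate 3 carries the label of 14 h, so the time on its label and its number cannot be told apart. HSPA12A was higher in number 3 in every group, with ratios of 1.31 in GLY, 1.46 in GLY_PUE, 1.54 in PUE and 1.57 in untreated libraries.

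Over all groups, libraries numbered 3 against 1 and 2 gave a log2 difference of 0.56 for HSPA12A (SE 0.14, adjusted p = 0.0161, edgeR) and of 0.88 for HSPA6 (SE 0.29, adjusted p = 0.0445, edgeR). The other 6 ran from −0.02 for BAG3 to 0.80 for CRYAB (adjusted p = 0.0561) and were not called, while 23.4% of all genes were, 18.1% as higher and 5.31% as lower. The split of those calls turned with the scaling, at 622 genes higher and 182 lower with recovered totals, 250 higher and 327 lower under TMM and 265 higher and 304 lower under RLE scaling. The HSPA6 difference was not alike in all groups. Its ratio of number 3 to the mean of 1 and 2 was 3.20 in GLY and 1.84 in GLY_PUE libraries. It was 1.33 in PUE libraries, against 0.568 in untreated libraries. The ratios of BAG3 and DNAJB1 also went both ways, at 1.40 and 1.27 in GLY and 1.02 and 1.135 in GLY_PUE libraries. In PUE libraries they were 0.829 and 0.895, and in untreated libraries 0.761 and 0.892. The HSPA6 call was lost without any of 9 single libraries, with 0.44 and adjusted p = 0.299 without GLY replicate 3. The HSPA12A call was lost without PUE replicate 3 (0.53, adjusted p = 0.0688) and without untreated replicate 3 (0.52, adjusted p = 0.0749), and both were lost under TMM. Without the 4 libraries numbered 3, GLY against untreated cells still gave 2.30 for HSPA1A, 1.69 for HSPA1B, 1.14 for BAG3, 0.89 for DNAJB1, 0.82 for HSP90AA1 and −1.89 for HSPA12A, each called. HSPA6 then had 8.05 times and CRYAB 9.95 times the untreated level.

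Per length, the order of the genes changed with GLY. In GLY cells mean FPKM was 2358 for HSP90AA1, 286 for HSPA1A, 219 for DNAJB1, 193 for HSPA1B, 88.5 for BAG3, 5.63 for CRYAB, 4.46 for HSPA12A and 3.16 for HSPA6. In untreated cells it was 1152 for HSP90AA1, 104 for DNAJB1, 43.2 for HSPA1B, 38.7 for HSPA1A, 32.6 for BAG3, 18.3 for HSPA12A, 0.36 for CRYAB and 0.193 for HSPA6. HSPA1A, DNAJB1 and HSPA1B overlapped in FPKM between the GLY libraries, and so did CRYAB, HSPA12A and HSPA6. Among untreated libraries HSPA1B overlapped with HSPA1A, and HSPA1A with BAG3, while the other neighbours did not overlap. Compared within each library, HSPA1A was above BAG3 in every untreated library. In every GLY library HSPA1A was above HSPA1B, and CRYAB above HSPA6. The order of the other overlapping pairs differed between libraries. GLY_PUE libraries had means of 2411 FPKM for HSP90AA1, 278 for HSPA1A, 191 for DNAJB1, 186 for HSPA1B, 89.7 for BAG3, 5.18 for HSPA12A, 3.92 for CRYAB and 2.41 for HSPA6. In PUE libraries the means were 1180.4 FPKM for HSP90AA1, 103 for DNAJB1, 44.4 for HSPA1B, 39.6 for HSPA1A, 31.6 for BAG3, 17.7 for HSPA12A, 0.42 for CRYAB and 0.200 for HSPA6.

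Across the 12 libraries the log2 CPM of the 7 genes that rose ran together, with Pearson's r of 0.937 to 0.996 between pairs, and HSPA12A ran against them with r of −0.832 to −0.936. These values describe libraries that share their treatment groups and depth scale, and carry no p. Leaving the 8 genes themselves out, the listed gene most like HSPA1A and HSPA1B was HSPA5, the HSP70 of the endoplasmic reticulum, with r of 0.997 and 0.998. HSPA6 was most like ARHGEF2 (r = 0.987), DNAJB1 most like SRPRB (0.994), BAG3 most like MSANTD3 (0.993), CRYAB most like MANF (0.987), HSP90AA1 most like UAP1 (0.992) and HSPA12A most like HMGN3 (0.996).

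Other genes of the chaperone system mostly rose with GLY too. Of 158 genes on lists of heat shock families and HSF1 targets, 28 were in the table, 20 of them outside the 8. These lists, like the 8 genes, were chosen with earlier results of these data known. In GLY against untreated cells 14 of these 20 rose, 3 fell and 3 did not pass, with a median log2 fold change of 1.06, beside −1.15 over all genes tested, of which 19.7% were called as higher and 64.6% as lower. In GLY_PUE against PUE cells 15 rose, 3 fell and 2 did not pass, with a median of 1.05 beside −1.05 over all genes, of which 20.6% were called as higher and 57.3% as lower. In PUE against untreated and in GLY_PUE against GLY cells none of the 20 was called.

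Of 34 HSF1 target genes, 11 were in the table, and all 11 rose in both comparisons, 7 of them among the 8 genes described. Of all genes tested 19.7% were called as higher in GLY against untreated cells and 20.6% in GLY_PUE against PUE cells. The list was chosen with earlier results known and the table is selected for change, so the count is no test of HSF1 activity. The other 4 were HSPB8, a small heat shock protein that works with BAG3 (2.95 in GLY against untreated cells, SE 0.57), ZFAND2A, which acts on proteasomes under arsenite stress (1.45, SE 0.34), HSPH1, an exchange factor of the HSP110 type (1.38, SE 0.39), and DNAJA4, a J domain protein (0.95, SE 0.25). HSPH1 stood at 488, 1597 and 2110.2 CPM in GLY libraries, at 1793, 1638 and 1713 CPM in GLY_PUE libraries, at 609, 599 and 475 CPM in PUE libraries and at 569, 588 and 454 CPM in untreated libraries. GLY replicate 1 thus lay within the range of the untreated libraries for this gene, while for the 8 genes described it did not.

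By family, 7 of 17 HSP70 genes were in the table, of which 6 rose with GLY and HSPA12A fell. Beside these family counts, 19.7% of all genes tested were called as higher and 64.6% as lower in GLY against untreated cells. The 2 of 4 HSP90 genes in the table, HSP90AA1 and HSP90B1 of the endoplasmic reticulum (1.08, SE 0.42), both rose. HSP90B1 had 517, 853 and 1913 CPM in GLY libraries and 458, 444 and 649 CPM in untreated libraries, so GLY replicate 1 lay within the untreated range (adjusted p = 0.0300, edgeR). Of 49 J domain genes 9 were in the table, and 7 rose, with DNAJB9 at 1.81 (SE 0.40), DNAJB5 at 1.48 (SE 0.37) and DNAJC1 at 1.03 (SE 0.22). DNAJC22 fell by 1.39 on the log2 scale (SE 0.22), and under TMM it was not called. DNAJC3 did not pass (0.96, adjusted p = 0.0540, edgeR) and is named after its values were seen.

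Of 11 small heat shock protein genes 3 were in the table, and CRYAB and HSPB8 rose while HSPB11, in name only a small heat shock protein and known as a part of the ciliary transport machinery, fell by 1.03 (SE 0.20), a call that TMM did not keep. BAG3 and HSPH1 were the 2 of 11 BAG and exchange factor genes in the table. The shares over all genes tested, 19.7% called as higher and 64.6% as lower, stand beside these counts too. Of 24 HSP90 co-chaperones only ITGB1BP2 was listed, at −1.16 (SE 0.51, adjusted p = 0.0462, edgeR) and at −0.01 under TMM. Of 17 chaperonin and prefoldin genes only PFDN2 was, a prefoldin subunit, which rose (1.47, SE 0.23). Of 14 ubiquitin and aggregate genes, 3 were in the table and rose: HSPB8, ZFAND2A and the ubiquitin ligase gene TRIM25 (1.02, SE 0.25). Among 10 heat shock factors and their regulators, HSF4 (−1.37, adjusted p = 0.0547, edgeR) and the acetyltransferase gene EP300 (−1.02, adjusted p = 0.0968, edgeR) were listed and did not pass, and HSF1 itself was not analysed here.

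Chaperones of other compartments appear only where the authors' selection for change took them. The share of all human genes so listed is not known here, so the numbers listed do not compare compartments. Of 19 endoplasmic reticulum genes 9 were in the table, and 8 rose in GLY against untreated cells, where 19.7% of all genes were called as higher, and 9 in GLY_PUE against PUE cells, where 20.6% were. HSPA5 stood at 2.86 (SE 0.37) and HYOU1 at 1.66 (SE 0.28) in GLY against untreated cells. HSPA5 had 2743, 3512 and 7588 CPM in GLY libraries and 643, 636 and 627 CPM in untreated libraries, so that, as for HSPA1A, GLY replicate 3 was the highest. Of 14 mitochondrial chaperone genes none was in the table, so they were not analysed here.

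**Figure D5:**
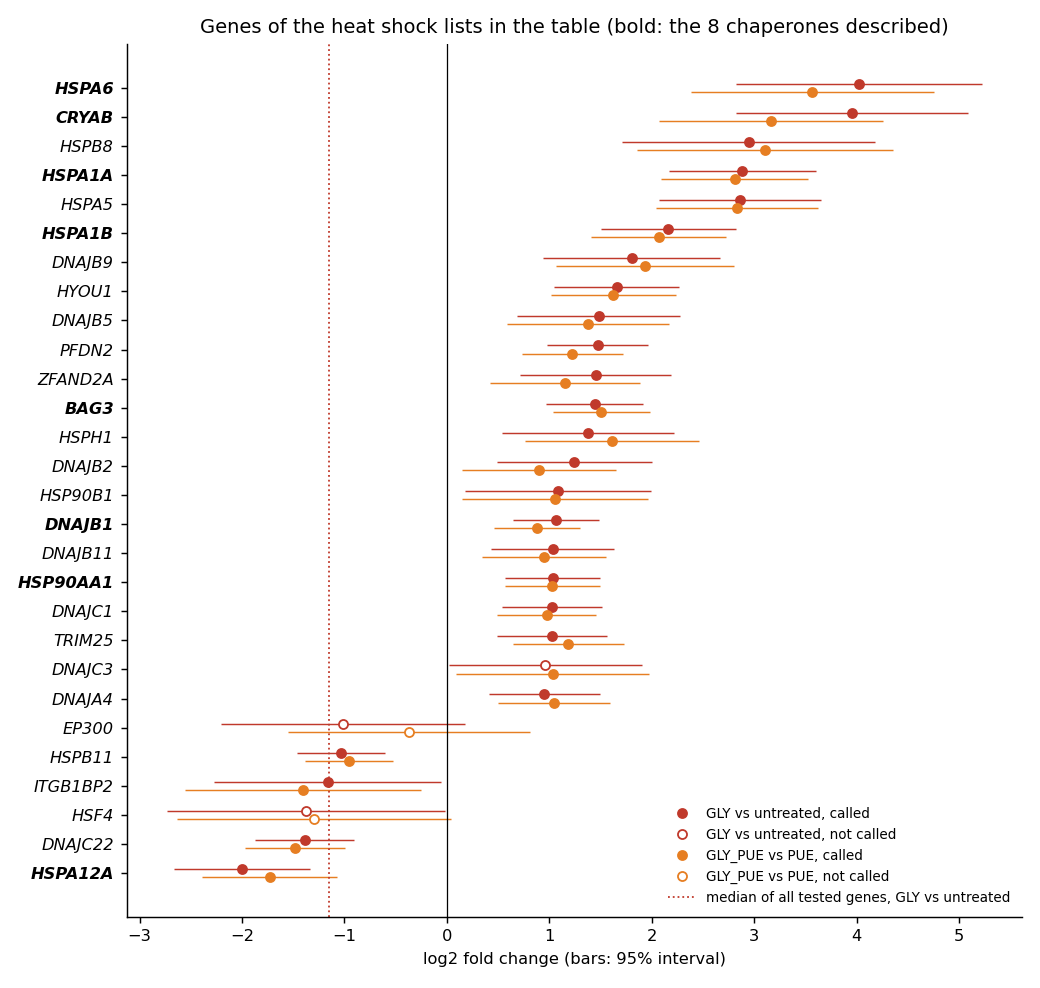
Log2 fold changes (bars, 95% intervals) of the 28 listed genes of the heat shock lists, with the 8 chaperones in bold. Filled points passed the threshold and open points did not, with GLY against untreated cells above GLY_PUE against PUE cells for each gene. Most points lie above 0, while the median of all genes tested, the dotted line, lies at −1.15.

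Markers of the cell line's own tissue and of other cells moved with GLY in part. Of 12 colorectal epithelium markers VIL1, CDX2 and LGR5 were in the table, with a summed level of 12.2 to 20.8 CPM in GLY, 13.6 to 15.4 CPM in GLY_PUE, 72.1 to 102 CPM in PUE and 71.5 to 99.7 CPM in untreated libraries. The sum is mostly CDX2, with untreated means of 72.3 CPM for CDX2, 6.92 CPM for VIL1 and 2.52 CPM for LGR5. Of all genes tested 64.6% were called as lower and 19.7% as higher in GLY against untreated cells. Of 4 leukocyte markers only CD68, a lysosomal protein, was listed, with 17.0 to 24.3 CPM in GLY, 17.6 to 23.5 CPM in GLY_PUE, 4.63 to 5.27 CPM in PUE and 3.79 to 5.91 CPM in untreated libraries. Of 6 fibroblast markers only PDGFRB was, with 1.64 to 3.57 CPM in GLY, 1.74 to 3.74 CPM in GLY_PUE, 0.689 to 0.915 CPM in PUE and 0.838 to 0.995 CPM in untreated libraries. None of 3 endothelial markers was listed, and the part of these markers in the chaperone results was not tested.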

How the data were processed

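Per the labels, RNA of SW480 cells was sequenced on the BGISEQ-500 platform from 0.5 µg per library. The authors deposited estimated counts per gene and library, of which 58.8% were whole (tolerance 0.001), without normalization, and expression values whose headers give no unit and which behave as FPKM. Per the file headers, the other columns hold the authors' group means, log2 ratios, p-values and q-values. The submitters' processing notes list 2 tools, TopHat and DESeq (1.32.0), without saying what each did. How reads were counted, with which strand setting and on which genome build, is not given in the sources used here.

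The table lists only some genes, so its sums are not depths. Relative totals came from the count divided by the FPKM in 625 genes that reached 100 counts and 5 FPKM in all 12 libraries. The lengths of 39 single-transcript genes of GENCODE release 29 set the scale: untreated replicate 1 came to 20.2 M reads, with a 95% interval of 19.991 to 20.7. Counts were rounded to whole numbers and fitted with edgeR 4.0.16 in R 4.3.3 (filterByExpr, robust quasi-likelihood fit of 4 groups over 12 libraries), with recovered totals as library sizes. All 8 genes passed the filter, but CRYAB, with 6 to 8 reads in each library without GLY, passed it only through the libraries with GLY. The alternatives tried were scaling by TMM or RLE, DESeq2 (1.42.0), limma (3.58.1, by voom, or trend on log2 of FPKM plus 0.1 or 1), other filters, a stricter threshold, fewer libraries, a replicate block and the HSPA1 pair as a sum. The fit was checked on simulated counts.

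The 8 genes and the lists were chosen with earlier results of these data known. Named genes are the 8, per heat shock list the up to 6 listed genes with the smallest p in GLY against untreated, and, per gene of the 8, the 3 listed genes outside the 8 most correlated with it, of which the first is given. In the labels' descriptions the number in the line's name counts up from sample to sample, and the extraction protocol mentions retinas, while every library is tagged SW480. BER and WOG, named in the protocol, were not analysed here. Promoter stretches are from RefSeq (GRCh38.p14), and no coordinates were taken from the deposited table.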

Additional observations from a re-analysis of the deposited data

How the results depend on the processing

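In the 3 comparisons with a GLY effect, all 471 values of the 8 genes under the alternatives kept their direction and their side of the threshold, with adjusted p up to 0.0160 in GLY against untreated cells (HSP90AA1), 0.0129 in GLY_PUE against untreated cells and 0.0212 in GLY_PUE against PUE cells (HSPA12A in both). The 509 values in PUE against untreated cells, in GLY_PUE against GLY cells and in the interaction stayed uncalled. Where HSPA1A and HSPA1B were summed, 7 genes remain in place of 8. On log2 of FPKM plus 1, which shrinks low genes by construction, the fold of HSPA6 in GLY against untreated cells was 3.17 and that of CRYAB 4.42, and in GLY_PUE against PUE cells they were 2.77 and 3.39. On log2 of FPKM plus 0.1 the HSPA6 fold in GLY cells was 9.67.

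Of the 8 genes, 2 were called between libraries numbered 3 and the rest. That count was 0 at an adjusted p under 0.01, 0 under TMM and 0 under RLE scaling, 1 with DESeq2's own size factors, 1 with limma on either FPKM scale and 3 with limma-voom. Leaving out single libraries gave 0 to 3. The cause was not tested.

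Counts of called genes depended on scaling. Of all genes tested, 2890 were called in GLY against untreated cells (674 higher, 2216 lower), and 1158 under TMM (812 higher, 346 lower), 1188 under RLE scaling and 1238 with DESeq2's own size factors. In GLY_PUE against untreated cells 2651 were called, and 1211, 1234 and 1285 under the same alternatives. In GLY_PUE against PUE cells 2669 were called (705 higher, 1964 lower), and 1232 (830 higher, 402 lower), 1250 and 1281. Both counts of 0, in GLY_PUE against GLY cells and in the interaction, were 1 without GLY_PUE replicate 2. For number 3, 804 genes were called, 281 at the stricter threshold, 340 without untreated replicate 3, 346 without PUE replicate 3, 521 without PUE replicate 1 and 1656 without GLY replicate 1.

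Of 18 pairs of libraries with the same number, 14 had deviations from their group means that correlated above 0.1 (r from 0.02 to 0.70), and pairing was accepted only if all did. The 6 pairs numbered 3 all did (r from 0.16 to 0.70), against −0.56 to 0.35 between libraries with different numbers, so libraries numbered 3 deviated together. With the replicate number as a block, all 8 genes were called in each comparison with a GLY effect (7 higher, 1 lower), HSPA6 stood at 3.82 and HSPA1A at 2.79 in GLY against untreated cells, 3086 of all genes were called there, and no other call on the 8 genes changed. Depth limits CRYAB and HSPA6 without GLY, which rest on 6 to 12 reads a library.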
